A study of Mus musculus with 4 samples.

Results

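Transcript levels of 41 genes of central carbon metabolism were compared between 2 zones of mouse embryonic cartilage. The 41 genes were chosen by name for their place in these pathways, not by a threshold on a measured value, and all 41 passed the filter on low counts, out of 34547 genes with a matched transcript. They comprise 16 genes of glucose uptake and glycolysis, 7 of lactate and pyruvate handling, 6 of the pentose phosphate pathway and 12 of the tricarboxylic acid (TCA) cycle. RNA came from forelimb cartilage of C57BL/6 mice, cut from frozen sections with a laser. PC denotes primary proliferating chondrocytes from E14.5 forelimbs (PC replicates 1 and 2), and HC denotes primary hypertrophic chondrocytes from E15.5 forelimbs (HC replicates 3 and 4). Zone and embryonic age coincide, so their effects cannot be told apart. No treatment or mutant allele is named for either group. The labels do not say whether the 2 libraries of a group came from separate animals, so p-values measure only the spread between these libraries.

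Glycolysis splits glucose into pyruvate and yields ATP without oxygen. Lactate dehydrogenase turns pyruvate into lactate, which leaves the cell through monocarboxylate transporters, while the pyruvate dehydrogenase complex passes pyruvate to the TCA cycle in mitochondria. The pentose phosphate pathway diverts glucose-6-phosphate to make NADPH and ribose. Growth plate cartilage has no blood vessels and is poor in oxygen, and its chondrocytes are known for a largely glycolytic metabolism. Hypoxia-inducible factors are known to drive many glycolytic genes.

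Total estimated counts were 30373440 and 36644496 in PC and 15246529 and 21866266 in HC. Genes with a count numbered 21231 and 21024 in PC and 16900 and 17878 in HC. Both HC libraries were thus shallower and held fewer detected genes than both PC libraries, with HC replicate 3 the lowest. HC replicate 3 also had the highest share of counts on mitochondrially encoded genes, 20.16% against 8.81% to 14.11% in the other libraries, and 8.75% of its counts on the predicted gene Gm10800. The zone labels were compared with marker genes fixed by name. All 8 hypertrophic markers were higher in both HC libraries than in both PC libraries, against 27.7% of all genes tested. The test described below was passed by 3 of them (Ihh, Mef2c and Alpl), 37.5%, against 2.75% of all genes as higher. The 8 summed to 370.9 and 1254 TPM in PC and to 13990 and 23730 TPM in HC. PC replicate 2 thus held more of this signal than PC replicate 1, for every marker but Panx3. The defining marker Col10a1 stood at 55.1 and 385 TPM in PC and at 4714 and 11140 TPM in HC, with an adjusted p of 0.054. None of the 7 general chondrocyte markers passed in edgeR, and Col2a1 was at 2200 TPM or more in every library. Like the glycolytic genes described below, most of these 7 lay lower in HC, with a median log2 fold change of -1.04. Both HC libraries lay below both PC libraries for 5 (71.4%), against 33.2% of all genes tested. An unadjusted edgeR p below 0.05 with lower levels was found for 4 (Sox9, Matn1, Col9a1 and Col11a2), against 14.4% of all genes. The 7 markers summed to 17520 and 11330 TPM in PC and to 5035 and 9339 TPM in HC. Summed markers of blood, bone, vessel and muscle cells were higher in HC. The summed level of 10 red blood cell markers was 70.5 and 103 TPM in PC and 459 and 703 TPM in HC, and 4 of 9 tested passed as higher. The 8 osteoblast and perichondrium markers summed to 246 and 345 TPM in PC and to 2089 and 1178 TPM in HC, and 2 passed. The 7 endothelial markers summed to 24.9 and 18.8 TPM against 95.3 and 72.6 TPM, and 2 passed. The 8 macrophage and osteoclast markers summed to 13.3 and 19.0 TPM against 122 and 91.2 TPM, and 2 of 7 tested passed, with C1qa at 0 in both HC libraries. The 10 muscle markers summed to 47.5 and 72.4 TPM against 191 and 79.2 TPM, and 1 of 9 tested passed. Of the 5 epidermal and 5 nerve markers, 3 of each were tested and none passed in edgeR. The nerve markers summed to 9.60 and 8.30 TPM in PC and to 1.21 and 2.08 TPM in HC, and the epidermal ones to 8.55 and 5.05 TPM against 2.74 and 7.98 TPM, with overlap. The part of these other cells, and of the general chondrocyte markers, in the differences below was not tested. In such bulk samples, fewer cells of a type and less RNA per cell cannot be told apart.

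Each gene was tested with edgeR's quasi-likelihood test and Benjamini-Hochberg adjustment over all 16607 genes kept, and the words rose, fell and passed are kept for an adjusted p below 0.05. CPM denotes counts scaled to a common library size and serves to compare 1 gene between libraries. TPM, as deposited, accounts for transcript length and serves to compare genes. Log2 fold changes are HC over PC, with standard errors (SE).

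Of the 41 genes, 3 fell and none rose, and most of the others lay lower in HC without passing. These were Slc16a3, which encodes the lactate exporter MCT4, and the glycolytic enzyme genes Pgam1 and Eno1. Among all genes tested, 1.96% fell and 2.75% rose. Both HC libraries lay below both PC libraries for 28 of the 41 genes (68.3%), against 33.2% of all genes tested, and above them for 5 (12.2%), against 27.7%. The log2 fold change was below 0 for 32 of the 41, against 51.3% of all genes, and its median was -0.82 against -0.04. An unadjusted p below 0.05 with lower levels in HC was found for 15 of the 41, against 14.4% of all genes, and no member had one with higher levels.

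**Figure D1:**
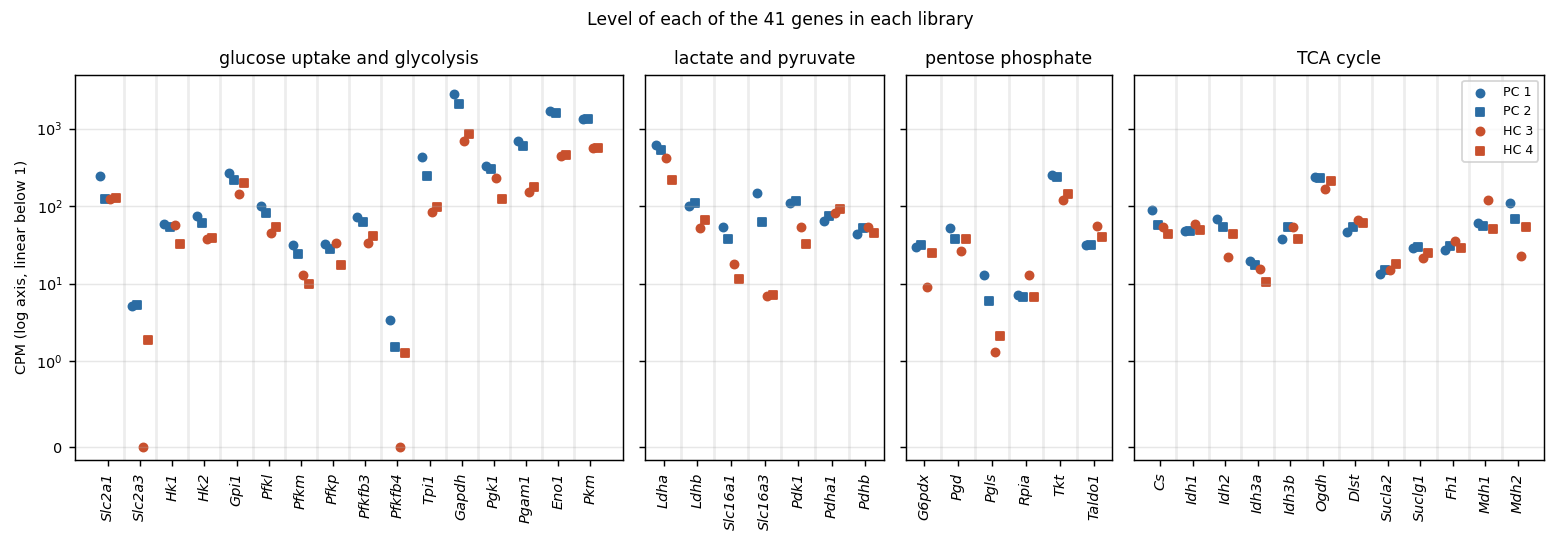
CPM (vertical, log axis that is linear below 1) of each of the 41 genes in each library, with PC in blue, HC in orange, circles for PC replicate 1 and HC replicate 3 and squares for PC replicate 2 and HC replicate 4. The orange points lie below the blue ones for 13 of 16 glycolytic genes and for 6 of 12 TCA cycle genes.

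The pathways differed in how many members lay lower, which was counted and not tested between pathways. Both HC libraries lay below both PC libraries for 13 of 16 genes of glucose uptake and glycolysis, 5 of 7 of lactate and pyruvate, 4 of 6 of the pentose phosphate pathway and 6 of 12 of the TCA cycle. The median log2 fold change was -1.07, -0.85, -0.66 and -0.16 in the same order. The summed level of the 16 glycolytic genes was 12920 and 9514 TPM in PC and 2186 and 3715 TPM in HC. Gapdh alone, which did not pass, held 8402 and 5913 TPM of this in PC and 1218 and 2175 TPM in HC. That of the 7 lactate and pyruvate genes was 1115 and 888 TPM in PC and 431 and 461 TPM in HC. The pentose phosphate genes summed to 259.7 and 359 TPM in PC and 173.5 and 244 TPM in HC, and the TCA cycle genes to 771 and 575 TPM against 318 and 484 TPM. In all 4 sums both HC libraries lay below both PC libraries, and HC replicate 3 was the lowest. TPM is a share of a fixed total, so a few very abundant transcripts in a library lower all others, and on the TPM scale the median gene tested was shifted by -0.39 on log2(TPM + 1), against -0.04 on the count scale.

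**Figure D2:**
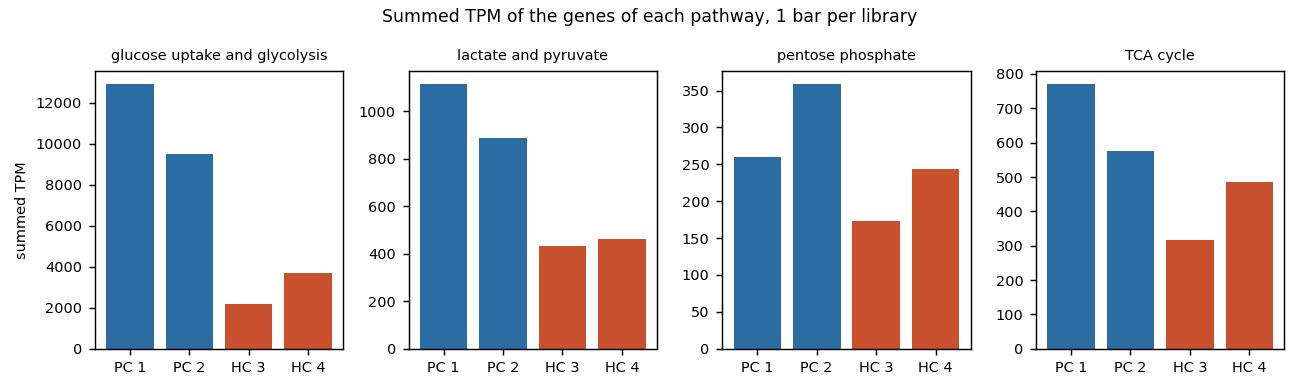
Summed TPM (vertical, from 0, with a scale of its own in each panel) of the genes of each pathway, 1 bar per library, PC in blue and HC in orange. The glycolytic sum is 9514 or more in PC and 3715 or less in HC, while the 2 groups lie closer in the other 3 panels. Gapdh alone makes 8402 and 5913 of the glycolytic sum in PC and 1218 and 2175 in HC.

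Slc16a3 (ENSMUSG00000025161, chr11:120948480-120960868, plus strand, GRCm38) had the largest fold change of the 3 genes that passed. It stood at 147 and 61.7 CPM in PC and at 6.82 and 7.07 CPM in HC. The HC libraries agree closely and lie far below both PC libraries, which differ from each other. The log2 fold change was -3.91 ± 0.51 (SE, n = 2 and 2), a level 15.0-fold higher in PC, with an edgeR adjusted p of 0.036. Without PC replicate 1 it was -3.19, and with a correction for the mean transcript length of the gene in each library it was -2.87 with an adjusted p of 0.065. Most of its signal in PC came from 1 protein-coding transcript, which carried 78.5% and 77.0% of the gene's TPM there and 16.7% and 45.3% in HC.

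Pgam1 (ENSMUSG00000011752, chr19:41911923-41918660, plus strand) encodes phosphoglycerate mutase, which moves the phosphate of 3-phosphoglycerate. It stood at 688 and 591 CPM in PC and at 154.5 and 179 CPM in HC. The groups are well apart, and each pair of libraries is close. The log2 fold change was -1.94 ± 0.31 (SE), 3.84-fold higher in PC, with an edgeR adjusted p of 0.039. All of its counts were on 1 transcript, and its near copy Pgam1-ps2 held 0 counts in every library.

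Eno1 (ENSMUSG00000063524, chr4:150236721-150248879, plus strand) encodes enolase, the next enzyme of the chain. It stood at 1714 and 1592 CPM in PC and at 443 and 458 CPM in HC. Here too the spread within each group was small beside the gap between groups. The log2 fold change was -1.88 ± 0.33 (SE), 3.67-fold higher in PC, with an edgeR adjusted p of 0.042. A short transcript of 345 bases took 29.5% and 32.8% of the Eno1 TPM in HC and 0.755% and 3.84% in PC. With the same correction for length the log2 fold change was -1.50 with an adjusted p of 0.085. The genes Eno1b and Gm4735, whose transcripts share sequence with Eno1, held 53 counts or fewer in each library.

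These 3 genes also passed when each library was left out in turn. Those fits assume that the lone library of a group varies like the pair of the other group, and they call many more genes where an HC library is dropped, so passing there says little about stability. The calls were lost under scaling by library size alone (adjusted p of 0.051 for each), in limma on TPM, and when only protein-coding transcripts were counted, where no gene of the whole table passed. DESeq2 called 11 of the 41 lower (8.44% of all genes), among them Tpi1, Gapdh, Pkm, Slc16a1, Pdk1, Pfkm, Pgls and Tkt. The count differed with the library left out: 3 fell without PC replicate 1 (1.41% of all genes) and 5 without PC replicate 2 (2.98%). Dropping HC replicate 3 gave 13 (15.2%), and dropping HC replicate 4 gave 19 (20.7%) and 1 gene, Mdh1, that rose. The share of all genes called was also higher in those 2 fits.

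The upstream sequences of the 3 genes that fell are shown because hypoxia-inducible factors and MYC-family proteins, whose genes are described further on, are known to bind short motifs near glycolytic genes. Each window holds the 250 bases before the RefSeq start site nearest to the start of the gene's most abundant transcript (RefSeq, GRCm38.p6). Capitals mark every ACGTG and GCGTG on either strand, the letters known as the core of the hypoxia response element. All 3 windows are on the plus strand.
Slc16a3, chr11:120948817-120949066: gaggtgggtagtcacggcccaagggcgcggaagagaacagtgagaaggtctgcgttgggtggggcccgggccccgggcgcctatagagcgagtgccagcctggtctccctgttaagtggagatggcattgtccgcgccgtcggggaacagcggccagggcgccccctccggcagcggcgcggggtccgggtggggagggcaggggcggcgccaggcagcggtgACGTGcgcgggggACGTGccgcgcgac
Pgam1, chr19:41911621-41911870: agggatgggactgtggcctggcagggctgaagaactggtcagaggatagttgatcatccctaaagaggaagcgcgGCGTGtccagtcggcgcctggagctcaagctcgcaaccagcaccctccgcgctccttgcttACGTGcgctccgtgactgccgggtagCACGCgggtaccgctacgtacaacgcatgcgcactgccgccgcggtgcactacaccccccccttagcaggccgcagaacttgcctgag
Eno1, chr4:150236458-150236707: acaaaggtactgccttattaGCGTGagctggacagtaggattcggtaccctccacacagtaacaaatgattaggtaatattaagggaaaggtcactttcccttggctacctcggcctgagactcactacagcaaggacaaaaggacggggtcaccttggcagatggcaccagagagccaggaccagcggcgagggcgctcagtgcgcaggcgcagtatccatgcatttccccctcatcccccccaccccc
The Slc16a3 window holds ACGTG 2 times, the Pgam1 window holds ACGTG 1 time and GCGTG 2 times, and the Eno1 window holds GCGTG 1 time. The start site of the Slc16a3 window lies 587 bases from that of the gene's main transcript, and the window falls inside that transcript's first intron (chr11:120948580-120954173). A window was found for 39 of the 41 genes, all but Slc2a3 and Idh3a. ACGTG was present in 12 of the 39 (30.8%), against 20.2% of 15148 windows of genes tested here and 16.6% of 32851 windows of all genes. GCGTG was present in 27 (69.2%), against 40.8% and 28.2%. CACGTG, the E-box bound by MYC, contains ACGTG and was present in 3 (7.7%), against 7.7% and 6.0%. These percentages are not of like sets. Each member has 1 window, the one nearest to its main transcript, whereas the other sets hold every window of a gene. Some member windows are far from that start: 17941 bases for Hk1, 15028 for Dlst and 3246 for Gapdh. Base composition differs between windows and was not matched, and a match of letters is a description and no evidence of binding.

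Glucose enters through facilitative transporters, of which Slc2a1 (GLUT1) held 98.8% or more of the summed TPM of Slc2a1 and Slc2a3 in every library. Slc2a1 stood at 243 and 123 CPM in PC and at 123 and 128 CPM in HC. Only PC replicate 1 stood apart, the groups overlapped, and the log2 fold change of -0.54 became 0.0014 without that library. Slc2a3 (GLUT3) was scarce, at 5.17 and 5.24 CPM in PC, 0 in HC replicate 3 and 1.85 CPM in HC replicate 4.

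Of the hexokinases, which trap glucose as glucose-6-phosphate, Hk2 stood at 74.1 and 60.6 CPM in PC and at 37.6 and 39.3 CPM in HC. The log2 difference of -0.81 had an adjusted p of 0.14. Hk1 stood at 58.4 and 54.5 CPM in PC and at 56.8 and 32.9 CPM in HC, with overlapping groups. Hk2 made 42.1% and 28.3% of the summed hexokinase TPM in PC and 19.4% and 24.0% in HC. The TPM share of Hk2 was thus lower in both HC libraries, by less than the gap between the PC libraries. That share depends on a transcript of 784 bases, which took 33.4% of the Hk1 TPM in PC replicate 1. It took 69.0% to 82.8% in the other libraries. In CPM, which does not account for length, Hk2 lay above Hk1 in every library but HC replicate 3. That order did not separate the groups. Gpi1, which encodes the isomerase of the next step, had a log2 fold change of -0.51 (adjusted p of 0.37).

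Phosphofructokinase commits the sugar to glycolysis. Pfkm, its muscle-type gene, stood at 31.1 and 24.1 CPM in PC and at 13.0 and 9.95 CPM in HC, a log2 fold change of -1.27 with an adjusted p of 0.097. Pfkl, the liver type and the most abundant in TPM, stood at 101 and 81.7 CPM in PC and at 44.7 and 53.1 CPM in HC, with an adjusted p of 0.12. Neither passed, although the groups did not overlap for either. Pfkp, the platelet type, had overlapping groups and a log2 fold change of -0.27. Of the bifunctional enzymes that make and remove the allosteric activator of phosphofructokinase, Pfkfb3 stood at 72.5 and 61.6 CPM in PC and at 33.9 and 41.7 CPM in HC, with an adjusted p of 0.15. Pfkfb4 was at 3.43 CPM or less in every library and at 0 in HC replicate 3.

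The 3 genes with the highest mean TPM of the 41, Gapdh, Eno1 and Pkm, encode enzymes between triose phosphate and pyruvate. Tpi1, which encodes triosephosphate isomerase, stood at 430 and 245 CPM in PC and at 84.8 and 96.9 CPM in HC. A log2 fold change of -1.89 ± 0.38 (SE) had an edgeR adjusted p of 0.053. Gapdh, which encodes the dehydrogenase of the next step and often serves as a reference gene, stood at 2763 and 2078 CPM in PC and at 697 and 850 CPM in HC, a log2 fold change of -1.65 ± 0.37 (SE) with an edgeR adjusted p of 0.064. Both genes were lower in both HC libraries than in both PC libraries, and both missed the threshold. Gapdh had the highest TPM of the 41 genes, 8402 and 5913 in PC and 1218 and 2175 in HC. Of that TPM, 74.1% to 79.2% lay on Gapdh-206, a retained-intron transcript of 565 bases, so the value depends on a short model. Sequence is shared with 42 other genes, nearly all scarce here, which together held 1.46% to 5.41% of the summed counts.

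Pgk1, which encodes phosphoglycerate kinase, the first step of glycolysis that yields ATP, stood at 329 and 301 CPM in PC and at 232 and 124 CPM in HC, a log2 fold change of -0.83 with an adjusted p of 0.24. Its counts are uncertain. The near copy Gm5537 and 1 other gene held 5761 and 3824 counts in PC and 0 and 1977 in HC, beside 11326 and 11608 counts of Pgk1 in PC and 2854 and 2753 in HC. Summing these near copies into the members changed no member's call.

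**Figure D3:**
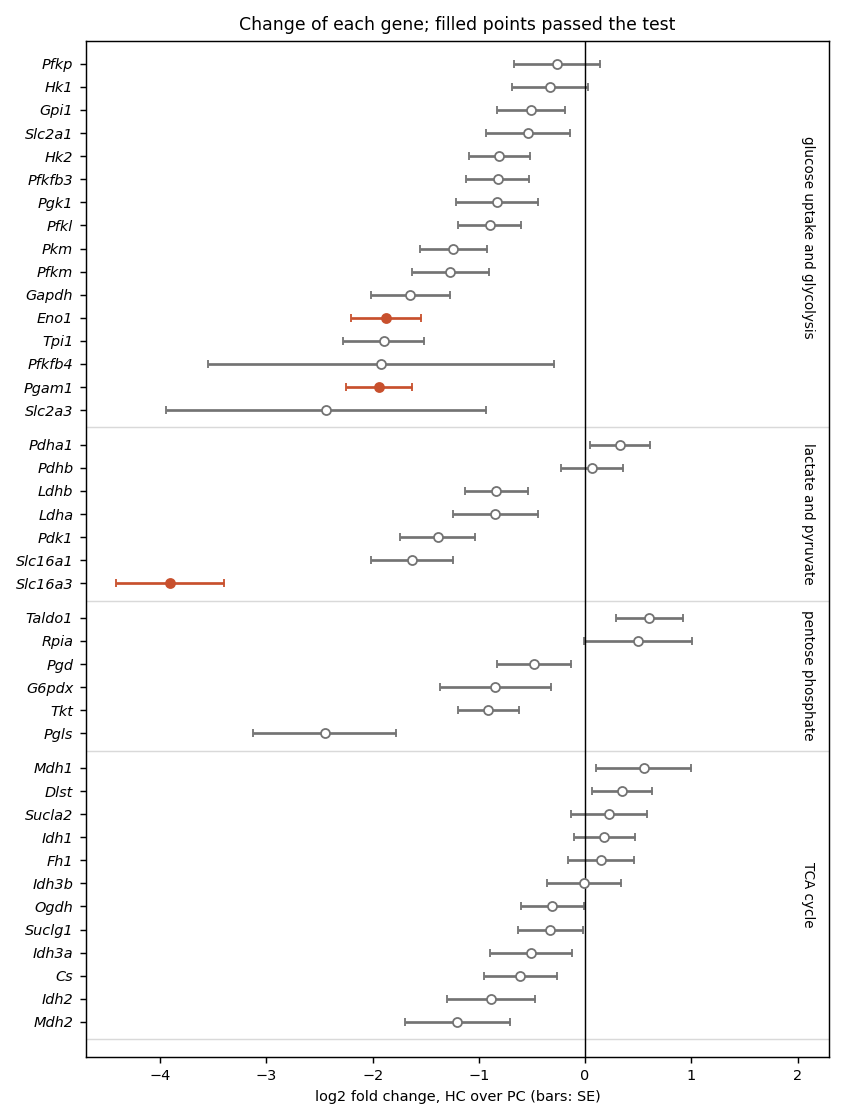
Log2 fold change, HC over PC (horizontal), with its standard error as a bar, for the 41 genes ordered by size within each pathway. Filled points are the 3 genes that passed, and all 16 points of glucose uptake and glycolysis lie left of 0.

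Pkm encodes the muscle-type pyruvate kinase and closes glycolysis. It stood at 1332 and 1331 CPM in PC and at 561 and 566 CPM in HC, so that the libraries of a group were almost equal. The log2 fold change was -1.24 ± 0.32 (SE), with an edgeR adjusted p of 0.081. Its RNA carries either of a pair of mutually exclusive exons, which give the proteins PKM1 and PKM2. PKM2 is known from embryonic and growing tissue and PKM1 from muscle and brain. The exons are shown because transcript Pkm-202 holds the upstream one, known from PKM1, and Pkm-201 the downstream one, known from PKM2. Both are exon 9 of their transcript and 167 bases long, and capitals mark the 64 positions at which they differ (GENCODE, GRCm38, plus strand).
Pkm-202, chr9:59675029-59675195: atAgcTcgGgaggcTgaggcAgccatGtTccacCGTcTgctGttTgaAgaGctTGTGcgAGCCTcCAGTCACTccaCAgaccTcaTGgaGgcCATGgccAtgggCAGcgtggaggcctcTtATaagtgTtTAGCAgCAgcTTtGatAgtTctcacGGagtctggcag
Pkm-201, chr9:59675568-59675734: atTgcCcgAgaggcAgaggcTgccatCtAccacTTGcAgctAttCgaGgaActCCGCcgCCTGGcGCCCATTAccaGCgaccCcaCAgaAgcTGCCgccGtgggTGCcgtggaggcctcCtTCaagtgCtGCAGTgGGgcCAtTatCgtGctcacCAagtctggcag
Pkm-202 made 13.6% and 46.6% of the summed TPM of these transcripts in PC, and 48.3% and 54.0% in HC. PC replicate 1 alone stood apart, and PC replicate 2 lay near the HC libraries. The shares are therefore not separated by more than the spread within PC. Pkm-201 held 37425 and 27711 counts in PC and 3800 and 6118 in HC, and Pkm-202 held 4861 and 20043 counts in PC and 2952 and 5960 in HC. These transcripts also differ at both ends, so reads outside the exon enter the split.

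Lactate dehydrogenase was represented mainly by Ldha, which held 74.9% to 86.6% of the summed TPM of Ldha and Ldhb with no separation of the groups. Ldha, the form known for turning pyruvate into lactate, stood at 609 and 528 CPM in PC and at 413 and 219 CPM in HC, with an adjusted p of 0.24. HC replicate 3 lay between HC replicate 4 and the PC libraries. Ldhb stood at 99.4 and 110 CPM in PC and at 51.6 and 66.0 CPM in HC, with an adjusted p of 0.14.

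The second monocarboxylate transporter gene, Slc16a1 (MCT1), which carries lactate in both directions, stood at 53.5 and 37.6 CPM in PC and at 18.0 and 11.5 CPM in HC. The log2 difference of -1.63 ± 0.39 (SE) had an edgeR adjusted p of 0.072. Slc16a3 and Slc16a1 together summed to 128 and 49.03 TPM in PC and to 11.1 and 9.25 TPM in HC. By gene TPM, Slc16a3 held most of this sum in every library, with 85.3% and 76.5% in PC and 70.0% and 64.2% in HC. The HC shares depend on short transcripts. In HC replicate 3, 76.1% of the Slc16a3 TPM lay on a transcript of 353 bases with 21 counts. The main transcript of Slc16a3, only a part of that gene's signal, stood at 1.30 and 2.69 TPM in HC. The whole of Slc16a1 stood at 3.33 and 3.31 TPM there, and the whole of Slc16a3 at 7.79 and 5.94 TPM. Slc16a1 had the higher CPM in both HC libraries, but CPM does not account for length. The Slc16a1 transcript has 4426 bases and the main one of Slc16a3 has 2272. Which of these genes led in HC is therefore not settled. Of the accessory genes of these transporters, Bsg, which encodes basigin, had the higher mean TPM and did not pass. It stood at 331 and 142 CPM in PC and at 93.9 and 179 CPM in HC, with overlapping groups and an adjusted p of 0.39. Emb, which encodes the partner protein embigin, rose. It stood at 19.2 and 35.8 CPM in PC and at 142 and 234 CPM in HC, a log2 fold change of 2.77 ± 0.46 (SE) with an edgeR adjusted p of 0.039.

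Entry of pyruvate into the TCA cycle is blocked by pyruvate dehydrogenase kinases, and genes of this family lay on both sides. Pdk1, a known target of hypoxia-inducible factor, stood at 109 and 117 CPM in PC and at 53.6 and 32.6 CPM in HC, with a log2 fold change of -1.39 ± 0.35 (SE) and an edgeR adjusted p of 0.079. Pdk4, known from fasting and fat oxidation and not one of the 41 genes, stood at 4.39 and 7.995 CPM in PC and at 71.3 and 97.9 CPM in HC. It rose, with a log2 fold change of 3.77 ± 0.44 (SE) and an edgeR adjusted p of 0.036. In TPM, Pdk1 made 58.7% and 51.3% of the family of 4 in PC and 20.6% and 16.8% in HC, whereas Pdk4 made 5.08% and 10.5% in PC and 55.6% and 55.5% in HC. The leading kinase gene was thus Pdk1 in both PC libraries and Pdk4 in both HC libraries. The summed TPM of the family was 92.5 and 106 in PC and 120 and 184 in HC. The subunit genes of the enzyme they act on did not pass: Pdha1 stood at 63.6 and 75.0 CPM in PC and at 81.3 and 92.6 CPM in HC (adjusted p of 0.52). Pdhb stood at 43.7 and 51.8 CPM in PC and at 54.5 and 45.4 CPM in HC, with overlapping groups.

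**Figure D4:**
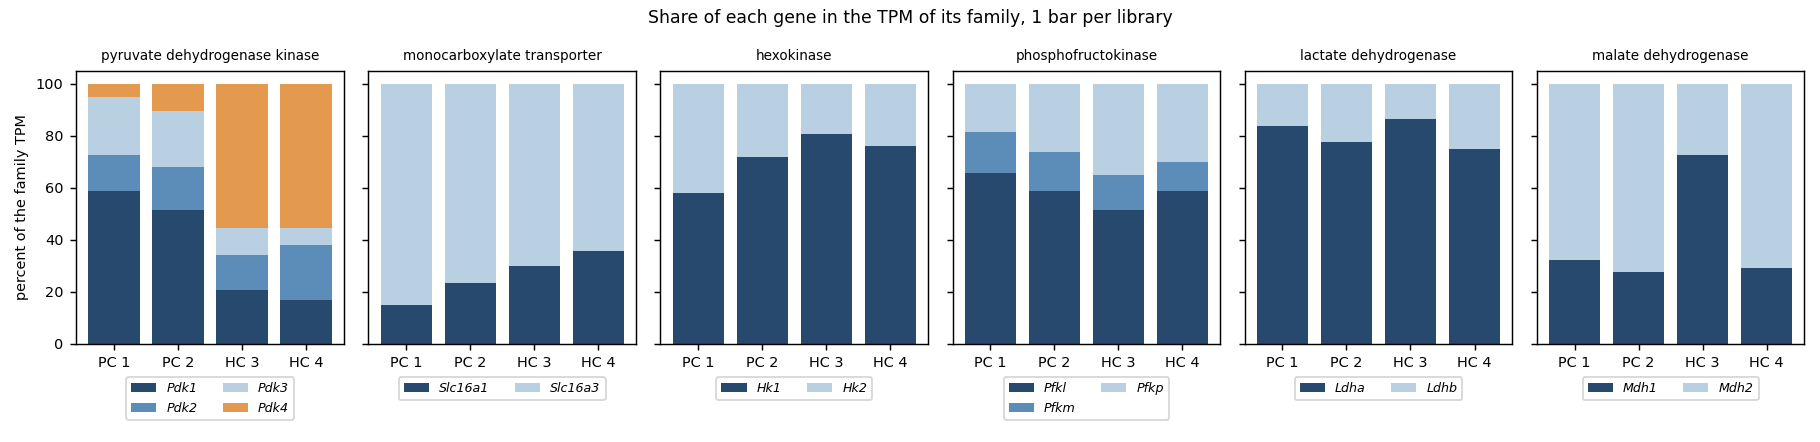
Share of each gene in the summed TPM of its family (percent, stacked), 1 bar per library, for 6 families. Pdk4 takes 55.6% and 55.5% of the kinase family in HC against 10.5% or less in PC, while lactate dehydrogenase shows no separation and malate dehydrogenase differs in HC replicate 3 alone.

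None of the 6 pentose phosphate genes passed in edgeR, 2 had an unadjusted p below 0.05, and DESeq2 called 2 lower, Pgls and Tkt. In the oxidative branch, which makes NADPH, Pgls (6-phosphogluconolactonase) stood at 12.8 and 6.05 CPM in PC and at 1.30 and 2.12 CPM in HC, with a log2 fold change of -2.45 ± 0.68 (SE) and an edgeR adjusted p of 0.091. It rests on 16 and 47 counts in HC and shares sequence with Fam129c, which held 60.0% and 70.6% of their summed counts there. G6pdx, which encodes the first enzyme of the branch, stood at 29.6 and 31.6 CPM in PC, at 8.93 CPM in HC replicate 3 and at 25.03 CPM in HC replicate 4. HC replicate 3 alone was far below PC. Pgd, which encodes the enzyme that releases CO2, stood at 51.6 and 38.1 CPM in PC and at 26.1 and 38.0 CPM in HC.

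In the non-oxidative branch, which exchanges carbon with glycolysis, Tkt (transketolase) was the most abundant of the 6 genes in TPM. It stood at 253 and 239 CPM in PC and at 120 and 141 CPM in HC, a log2 fold change of -0.91 ± 0.29 (SE) with an edgeR adjusted p of 0.11. Over the alternative settings given at the end, the log2 fold change of Tkt ran from -1.16 to -0.25. A transcript of 465 bases took 6.84% and 68.4% of the Tkt TPM in PC and 79.4% and 68.9% in HC. The TPM of Tkt, and the pentose phosphate sum that includes it, therefore depend on a short model. Taldo1 (transaldolase) was on the other side, at 31.5 and 32.0 CPM in PC and at 56.1 and 40.6 CPM in HC, a log2 fold change of 0.61 with an adjusted p of 0.28. In HC replicate 3, 71.1% of the Taldo1 TPM lay on 1 processed transcript, which had 0 counts in the other 3 libraries. Rpia, which encodes ribose-5-phosphate isomerase, stood at 7.21 and 6.72 CPM in PC and at 12.9 and 6.80 CPM in HC. Only HC replicate 3 was high.

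None of the 12 TCA cycle genes passed in edgeR or DESeq2, and none had an unadjusted p below 0.05 in edgeR. Their log2 fold changes ran from -1.20 to 0.55. Cs, which encodes citrate synthase at the entry of the cycle, stood at 90.5 and 56.7 CPM in PC and at 53.2 and 43.4 CPM in HC (adjusted p of 0.32). Ogdh, which encodes the first subunit of the oxoglutarate dehydrogenase complex, was one of the 3 most abundant in TPM and stood at 235 and 233 CPM in PC and at 166 and 212 CPM in HC. The second subunit gene, Dlst, lay the other way, at 46.1 and 53.7 CPM in PC and at 67.0 and 60.1 CPM in HC. Dlst has no counts on protein-coding transcripts in either HC library, so the value describes its noncoding models there.

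The mitochondrial enzymes Mdh2 and Idh2 had the lowest unadjusted p of the cycle. Mdh2 (malate dehydrogenase) stood at 109 and 68.6 CPM in PC and at 23.0 and 54.0 CPM in HC, with a log2 fold change of -1.20 ± 0.49 (SE) and an edgeR adjusted p of 0.19. Idh2, the mitochondrial isocitrate dehydrogenase that uses NADP, stood at 68.7 and 53.4 CPM in PC and at 21.8 and 44.1 CPM in HC, with an adjusted p of 0.24. In both, HC replicate 3 was the lowest library and HC replicate 4 lay closer to PC. The cytosolic counterparts showed no such pattern. Mdh1 stood at 60.3 and 54.7 CPM in PC, at 118 CPM in HC replicate 3 and at 50.5 CPM in HC replicate 4. Idh1 stood at 47.8 and 47.4 CPM in PC and at 59.3 and 48.7 CPM in HC. Mdh1 accordingly made 72.7% of the malate dehydrogenase TPM in HC replicate 3 and 27.6% to 32.0% in the other libraries. The share of Mdh2 counts on protein-coding transcripts was 74.9% and 9.29% in PC and 0.622% and 10.3% in HC, so its transcripts were not resolved alike even within PC.

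The remaining genes of the cycle had log2 fold changes between -0.51 and 0.22. Idh3a, the catalytic subunit of the NAD-dependent isocitrate dehydrogenase, stood at 19.6 and 17.4 CPM in PC and at 15.7 and 10.4 CPM in HC, with an adjusted p of 0.46. The share of its counts on protein-coding transcripts was 84.4% and 72.4% in PC and 0.0% and 46.3% in HC. Over the alternative settings given at the end, its log2 fold change ran from -2.52 to -0.25. Its partner Idh3b had a log2 fold change of -0.01 and overlapping groups. Sucla2 and Suclg1, subunit genes of succinyl-CoA synthetase, had log2 fold changes of 0.22 and -0.33. Fh1, which encodes fumarase, had one of 0.15.

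Related genes outside the 41 were counted in the same fit. Of 22 further glycolysis genes tested, 1 fell (4.55%, against 1.96% of all genes tested) and none rose. Their median log2 fold change was -0.79. The gene that fell was Adpgk, an ADP-dependent glucokinase, at 68.9 and 78.5 CPM in PC against 22.7 and 27.6 CPM in HC. The change of -1.55 (log2) had an edgeR adjusted p of 0.048, which became 0.12 without PC replicate 1 and 0.16 without PC replicate 2. Pgm1, which links glycolysis to glycogen, stood at 87.2 and 76.6 CPM in PC and at 29.7 and 34.98 CPM in HC and missed the threshold (adjusted p of 0.060). Aldoa, the main aldolase gene and named after its values were seen, stood at 623 and 526 CPM in PC and at 237 and 335 CPM in HC (adjusted p of 0.13). Slc2a4, the insulin-responsive glucose transporter, was at 1.28 CPM or less in PC and at 0 in HC. Of 15 further lactate and pyruvate genes, Pdk4 and Emb rose (13.3%, against 2.75% of all genes tested) and none fell. Their median log2 fold change was 0.31.

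None of the 9 further pentose phosphate genes tested passed, and the lowest unadjusted p belonged to Rbks (adjusted p of 0.087) and Prps1 (0.16). None of 28 further TCA cycle genes passed either, with a median of -0.22 and with Gls2 (0.075) and Slc25a12 (0.13) the nearest. Of 22 genes of glycogen and gluconeogenesis, none passed. Pygl, the liver-type glycogen phosphorylase, stood at 145 and 129 CPM in PC and at 56.7 and 46.1 CPM in HC (adjusted p of 0.055), and Pygm, the muscle type, at 0.203 and 0.156 CPM in PC and at 2.35 and 3.83 CPM in HC (0.079). The 20 nuclear genes of the respiratory chain had a median log2 fold change of -0.09, and none passed. Cyc1 (adjusted p of 0.11) and Atp5a1 (0.20) had their lowest unadjusted p. At an unadjusted p below 0.05 these 4 lists held 4, 4, 8 and 1 genes, of which 3, 4, 6 and 1 were lower in HC, beside 27.0% of all genes tested in either direction.

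Regulators known to act on these pathways were also counted. Of 20 tested, Epas1 and Ppargc1a rose (10.0%) and Myc fell (5.0%), against 2.75% and 1.96% of all genes tested. Epas1, which encodes HIF-2alpha, stood at 10.5 and 20.4 CPM in PC and at 213 and 297 CPM in HC, a log2 fold change of 4.05 ± 0.47 (SE) with an edgeR adjusted p of 0.036. Hif1a, which encodes HIF-1alpha, stood at 391 and 526 CPM in PC and at 415 and 371 CPM in HC, with overlapping groups and a log2 fold change of -0.22. Epas1 is also expressed in endothelium, whose markers were higher in HC as given above, and the part of those cells was not tested.

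Ppargc1a encodes PGC-1alpha, a coactivator known for mitochondrial genes and for Pdk4. It stood at 3.52 and 6.02 CPM in PC and at 41.2 and 113 CPM in HC. The log2 difference of 4.01 ± 0.62 (SE) had an edgeR adjusted p of 0.037, and was 3.06 without HC replicate 4. Myc, a proto-oncogene known to drive glycolytic genes in growing cells, stood at 242 and 128 CPM in PC and at 30.7 and 46.9 CPM in HC. The log2 difference of -2.25 ± 0.44 (SE) had an edgeR adjusted p of 0.0496, just below the threshold, and of 0.068 without PC replicate 1.

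Of 20 further genes known as targets of hypoxia-inducible factors, 1 rose (5.0%) and 1 fell (5.0%), against 2.75% and 1.96% of all genes tested. Their median log2 fold change was -0.24. Mxi1, a MYC antagonist, rose from 14.01 and 15.2 CPM in PC to 59.0 and 114 CPM in HC, with a log2 fold change of 2.56 that was 1.97 without HC replicate 4 and an edgeR adjusted p of 0.039. Ero1l, an oxidase of protein folding, fell from 71.2 and 57.1 CPM in PC to 15.3 and 19.0 CPM in HC, with a log2 fold change of -1.90 and an edgeR adjusted p of 0.040, or 0.11 without PC replicate 1. Both HC libraries lay below both PC libraries for 9 of the 20 genes (45.0%) and above them for 8 (40.0%). Among all genes tested the shares were 33.2% and 27.7%.

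**Figure D5:**
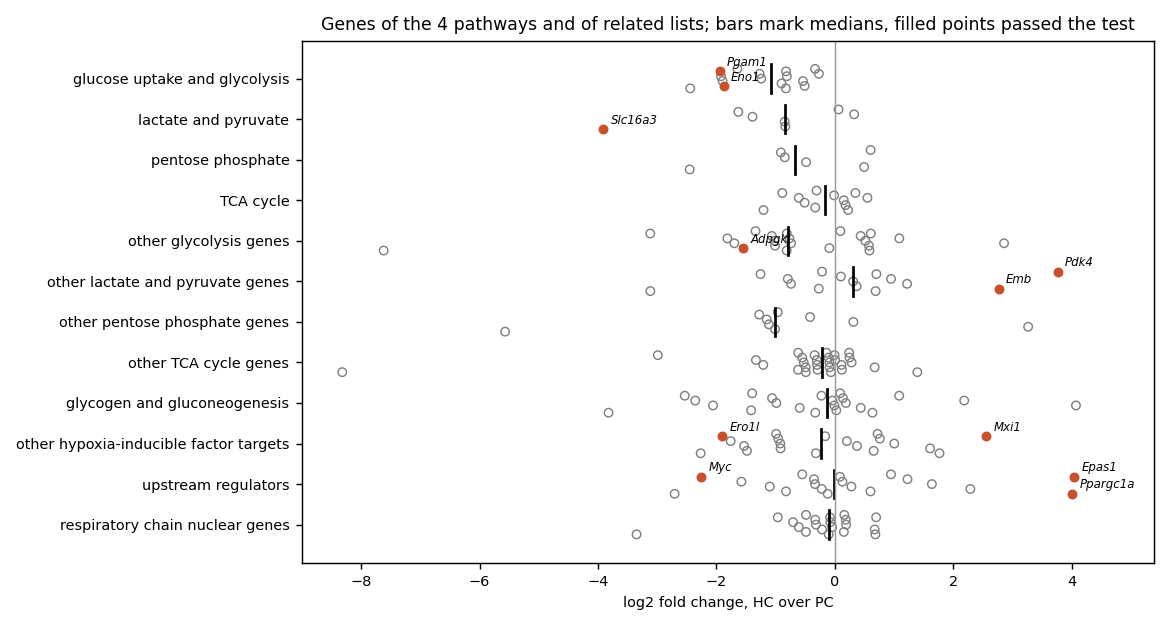
Log2 fold change, HC over PC (horizontal), of every tested gene of the 4 pathways and of 8 related lists (vertical position within a row only separates points). Black bars are list medians, filled and named points passed, and the filled points lie left of 0 in the glycolysis rows and on both sides among the regulators.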

How the data were processed

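The submitters' processing notes name kallisto 0.43.1, a pseudoaligner that counts reads per transcript, Trimmomatic 0.36 and build mm10. The labels' protocols name a library kit for degraded RNA. Each deposited table holds an estimated count, a length, an effective length and TPM for each transcript, per the file headers. Estimated counts divide reads by likelihood among transcripts that share sequence. No source used here gives the strand setting, so antisense and overlapping genes may share reads.

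Of 109282 transcripts, 107987 matched GENCODE M21 (GRCm38) by identifier; the others held 0.53% of counts or less. Counts were summed per gene, rounded, filtered with filterByExpr, scaled by the trimmed mean of M values (factors 1.14 and 1.058 in PC, 0.812 and 1.021 in HC) and compared with edgeR 4.0.16. The script was tested on simulated data. Near copies share at least 50% of a transcript's 31-base words with a member. Alternatives used DESeq2 1.42.0 and limma 3.58.1 in R 4.3.3; tables and plots used pandas 2.3.3 and matplotlib 3.10.9. Depth limits the precision of scarce genes, and counts of amplified reads are not independent molecules.

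All 41 members are named; values per library are given for those that passed, the 4 with the lowest p and the 3 with the highest mean TPM in each pathway, and others beside them. Of the other lists, genes that passed are named, plus up to 2 with the lowest p. The members, lists and marker genes were chosen with earlier results of these data known, so their counts are descriptions.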

Additional observations from a re-analysis of the deposited data

How the results depend on the processing

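Over all genes tested, 782 passed. The number was 3097 of 17138 with DESeq2 and 1928 of 24150 with no filter on low counts. It was 1430 of 8937 with a filter of 10 CPM in 2 libraries and 422 of 16607 with a correction for transcript length. It was 0 with scaling by library size alone, in limma on log2(TPM + 1) and log2(TPM + 0.1), and when only protein-coding transcripts were counted, with 4394, 4260, 3993 and 3761 genes at an unadjusted p below 0.05. Scaling by library size alone moved the median of all genes to -0.29, and DESeq2 to -0.21. The counts of members and pathways below are not corrected for how many genes a setting called. A higher count where more of all genes passed is therefore no sign of a stronger change in the members. The filter of 10 CPM kept 37 of the 41 members, with 14 of 16 glycolytic and 4 of 6 pentose phosphate genes. Leaving out 1 library gave 636 to 7106 genes. The 3 members that passed became 11 with DESeq2, 8 with no filter and 6 with 10 CPM, 0 in the 4 settings named, and 3 to 20 when 1 library was left out. Glycolysis went from 2 to 6, 4 and 4, to 0 in those 4 settings and to 2 to 10 without 1 library. Lactate and pyruvate went from 1 to 3, 3 and 2, to 0 in those 4 settings and with the length correction, and to 1 to 4 without 1 library. The pentose phosphate count of 0 became 2 with DESeq2, 1 with no filter and 0 to 3 without 1 library. The TCA cycle count of 0 became 3 without HC replicate 4 and was 0 in every other setting run.

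Of 609 recomputed fold changes of members, 510 kept their direction and side of the threshold, 47 newly passed, 14 no longer passed and 38 changed direction. No member that passed changed direction. With the length correction, Slc2a1 became 0.03, Hk1 0.22, Idh3b 0.30 and Mdh1 -0.22. With library size alone, Pdhb became -0.21, Idh1 -0.10, Sucla2 -0.02 and Fh1 -0.12. In limma with a pseudocount of 1 or 0.1, Pdhb became -0.20 in both, Rpia -0.28 and -0.35, Idh1 -0.38 and -0.39, Dlst -0.11 and -0.12, Sucla2 -0.21 and -0.23, and Mdh1 -0.68 and -0.69. With protein-coding transcripts only, Pdhb became -0.18, Rpia -0.86, Dlst -11.64 (no such counts in HC, so no bound) and Fh1 -0.24. Idh3b was 0.0061 with DESeq2, 0.0091 with relative log expression (RLE) scaling in edgeR, 0.11 with 10 CPM and 0.02 with nuclear protein-coding genes. Without 1 library, ranges that crossed 0 were -0.98 to 0.0014 (Slc2a1), -0.83 to 0.08 (Pfkp), -0.11 to 0.16 (Pdhb), -0.07 to 0.84 (Rpia), -0.00047 to 0.27 (Idh1), -0.32 to 0.24 (Idh3b), -0.04 to 0.25 (Fh1) and -0.22 to 0.99 (Mdh1). The causes were not tested. Counting only protein-coding transcripts and summing in near copies were chosen after seeing the data. No paired analysis was possible because the groups share no replicate number. With 2 libraries a group, the fits have few residual degrees of freedom (2, or 1 without a library, where the lone library is assumed to vary like the other group), and genes of a few CPM such as Slc2a3, Pfkfb4 and Pgls have the widest errors.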
